A study of Homo sapiens with 8 samples.

Results

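HCT116 cells treated with a nanodrug that the labels call AFZC were compared with HCT116 cells treated with free 5-fluorouracil (5-FU), with 2 RNA-seq libraries on each side, 4 of the 8 libraries in the series. The libraries were chosen by the line and treatment in their labels, and every gene of the count table was eligible. HCT116 is an established human colorectal carcinoma line, and 5-FU is a fluorinated pyrimidine that blocks thymidylate synthase and enters RNA and DNA. Per the series title, the nanodrug is a metal-organic framework, a porous lattice of metal ions and organic linkers, that holds 5-FU inside and carries an aptamer, a folded nucleic acid chosen to bind a target. Treatment lasted 24 h at the IC50 of each agent, and the sources used here do not give the doses. Cells of both groups therefore received 5-FU in one form or the other. Untreated cells and a framework without 5-FU were not analysed here, so each difference is AFZC relative to free 5-FU. The other 4 libraries came from SW620, a second colorectal line, under the same agents, and they serve for the estimate of spread and for 1 comparison between the lines.

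As background, p53 is a transcription factor that damaged DNA and disturbed ribosome assembly stabilise, and its targets stop the cell cycle, repair DNA or start cell death. HCT116 is known for an intact p53 pathway and SW620 for a mutated p53. Messenger RNAs of ribosomal proteins and of many translation factors begin with a run of pyrimidines, the 5′ TOP motif, through which the cell sets their translation and stability with nutrient and growth signals.

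The 4 libraries held 33764058 to 36518758 counts in 26500 to 28340 genes, and 21378 genes were tested over all 8 libraries. Levels are CPM (counts scaled to the library's size, with TMM factors), and the order within each group is replicate 1, then replicate 2. Changes are log2 fold changes of AFZC over 5-FU with their SE, and adjusted p-values are from edgeR's quasi-likelihood test over all genes. The labels do not say whether the replicates were separate cultures, and the spread that p-values are read against, that between libraries of a group, may be technical. The AFZC libraries differed from each other more than the 5-FU libraries did, with a chi-square per degree of freedom of 51.5 against 23.5. Relative to AFZC replicate 2, replicate 1 was higher by a median log2 difference of 0.83 over the keratin genes and 0.78 over the immediate early genes, and lower by 0.66 over the mitotic genes. The ribosomal protein genes were higher by a median of 0.35 in replicate 1 of 5-FU than in replicate 2. The part of these gaps in the results below was not tested beyond leaving out each library in turn.

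Markers of the labelled cell type were present, though VIL1 was near 0 under 5-FU, at 0.115 and 0 CPM. Under AFZC VIL1 was at 1.96 and 0.777 CPM. VIL1 and KRT19 were the epithelial markers called higher, and CLDN3 the one called lower. Of 12 markers of colorectal epithelium 2 were higher under AFZC and 1 lower, and their summed level was 4982 and 4059 CPM under 5-FU and 8979 and 5478 CPM under AFZC. EPCAM, an epithelial adhesion molecule, stood at 341 and 259 CPM under 5-FU and 264 and 269.8 CPM under AFZC, and CDX2, the intestinal homeobox factor, at 23.7 and 20.9 CPM under 5-FU and 21 and 23.4 CPM under AFZC. Fibroblast markers summed to 48.5 and 48.6 CPM under 5-FU and 70 and 63.6 CPM under AFZC over 12 genes, most of it COL1A1, with LUM, FAP and POSTN at 0 in all 4 libraries. Of the 6 fibroblast markers tested 2 were higher, ACTA2, which is also a listed p53 target, and PDGFRB (1.61 and 1.30 log2 units). Neither call held in all 5 fits. ACTA2 (chromosome 10, 88935074 to 88991339) overlaps the start of FAS (88990582 to 89015785) on the other strand. Without strand information, reads from the overlap are uncertain in origin. Leukocyte markers summed to 1.73 and 2.89 CPM under 5-FU and 11.6 and 9.68 CPM under AFZC over 14 genes, most of the AFZC values from ITGAM, the marker called higher of 8 tested, with FCGR3A at 0 and PTPRC and CD3E at most at 0.0577 CPM. Endothelial and red cell markers summed to 5.82 and 7.41 CPM under 5-FU and 6.81 and 6.94 CPM under AFZC over 11 genes, and of 5 tested 1, KDR, was lower (-3.58).

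Of the genes tested, 1254 (5.87%) were higher under AFZC and 800 (3.74%) lower at an adjusted p under 0.05. The shares of 5.87% and 3.74% are the background for every list count below. At least 2-fold differences were also seen for 780 (3.65%) and 345 (1.61%) of the genes tested. In 4 more fits 1 HCT116 library each was left out. Such a fit has 1 library in a group, so a call can be lost through lower power while the effect changes little. A lost call therefore does not show that a change is absent. A call was counted as kept when it held in all 5 fits, the one with every library and these 4. This left 171 genes higher (0.8%) and 58 lower (0.271%), 1.07% in all. Protein-coding genes made up 1121 of the genes higher and 664 of those lower (7.39% and 4.38% of 15171 tested). Long noncoding genes made up 99 and 71 (2.54% and 1.82% of 3898), and pseudogenes 25 and 60 (1.38% and 3.3% of 1818). Without replicate 1 or 2 of 5-FU the counts were 199 higher and 78 lower, and 338 and 204. Without replicate 1 or 2 of AFZC they were 493 and 229, and 1538 and 772.

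**Figure D1:**
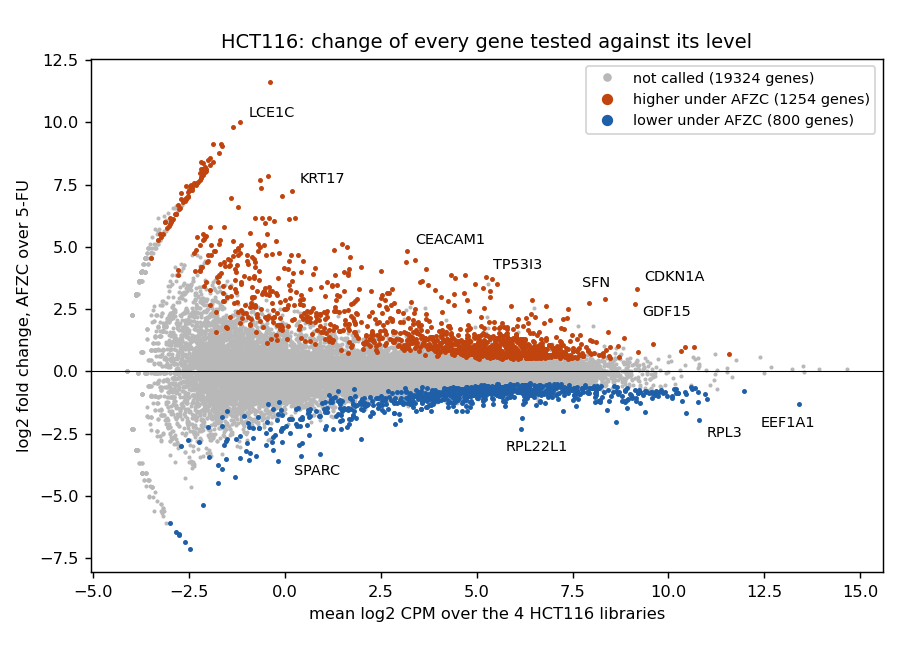
Log2 fold change of AFZC over 5-FU (y axis) against the mean log2 CPM over the 4 HCT116 libraries (x axis) for the 21378 genes tested, with 1254 higher genes in orange and 800 lower genes in blue. Rises of over 4 log2 units lie mostly at low levels, where fitted values depend on the prior count, while CDKN1A (3.33) and RPL3 (-1.95) are large changes of abundant messages.

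The sequences that bear on the 2 leading groups of genes are shown first. A p53 response element consists of a pair of adjacent decamers with the core CNNG in each. The start windows of RefSeq (GRCh38.p14, 250 bases before to 50 after a gene's start) were searched for 2 adjacent decamers with at most 3 mismatches to the consensus outside the C and G of the core, a form that reads alike on both strands. Of 46 listed p53 target genes with a window, 7 held such a pair (15.2%), against 1.05% of all 27305 windows. The share was 3.82% of genes higher under AFZC, 8.53% of those higher in all 5 fits and 0.544% of genes lower. The genes called higher include listed targets, so their shares are not independent of the share in the list. The matches of 4 targets that rose are shown 5′ to 3′ on the gene's strand, with the core of each decamer in capitals.
GDF15, chr19:18386186-18386205, plus strand: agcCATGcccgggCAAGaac
FDXR, chr17:74872996-74873015, minus strand: gggCAGGagcgggCTTGccc
AEN, chr15:88621306-88621325, plus strand: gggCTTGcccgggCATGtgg
RPS27L, chr15:63157527-63157546, minus strand: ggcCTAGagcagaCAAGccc
A match is a description of these letters, and binding was not measured.

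A run of at least 5 pyrimidines that covers the start or lies within 5 bases of it was found in 53 of 63 ribosomal protein genes with a window (84.1%) and 15 of 19 other genes of the TOP list, mostly translation factors (78.9%), against 26.1% of all windows. It was present in 37.2% of genes lower under AFZC and 22.9% of genes higher. The genes called lower include ribosomal protein genes and other genes of the TOP list, so their share is not independent of those lists. The 30 bases around the start are shown for 5 genes that fell, with the run in capitals. They are also shown for NCL, a nucleolar protein with no run inside these limits. Its window does hold runs of at least 5 pyrimidines farther from the start.
RPL3, chr22:39319609-39319638, minus strand: gtaaggccgaccggCCTCTaccggcgggat
RPL10A, chr6:35468386-35468415, plus strand: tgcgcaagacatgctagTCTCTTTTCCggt
RPL12, chr9:127451392-127451421, minus strand: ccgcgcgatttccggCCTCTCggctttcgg
EEF1A1, chr6:73521018-73521047, minus strand: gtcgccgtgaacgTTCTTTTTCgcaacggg
EEF2, chr19:3985449-3985478, minus strand: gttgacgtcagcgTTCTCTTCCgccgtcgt
NCL, chr2:231464470-231464499, minus strand: tcagtctttcgcctcagtctcgagctctcg

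Targets of p53 were higher under AFZC. Of 59 listed targets tested 49 were higher and 1 lower, beside 5.87% and 3.74% of all genes, with a median log2 fold change of 1.59 against 0 over all genes. In all 5 fits 34 stayed higher, and 34 to 47 were higher without any 1 library. The libraries of the groups did not overlap for 56 targets that were higher, beside 28.1% of all genes.

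CDKN1A, the p21 brake on cyclin-dependent kinases (chromosome 6, 36676460 to 36687339), was at 189 and 175 CPM under 5-FU and 2030.3 and 1633 CPM under AFZC. Both AFZC libraries lay at least 8-fold above both 5-FU libraries (3.33 ± 0.224 log2 units, adjusted p = 7.94e-06). MDM2, the ubiquitin ligase that removes p53 (chromosome 12, 68808176 to 68850686), was at 91.8 and 105 CPM under 5-FU and 420.5 and 898 CPM under AFZC. Here AFZC replicate 2 was the higher of its pair, and the groups did not overlap (2.75 ± 0.299 log2 units, adjusted p = 0.000519). PPM1D, a phosphatase that switches the damage response off, was at 36.3 and 40.6 CPM under 5-FU and 215 and 168 CPM under AFZC (2.32 ± 0.171 log2 units, adjusted p = 1.55e-05). These 2 genes act against p53, and both rose with the targets that carry out its response.

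TP53I3, a quinone oxidoreductase (chromosome 2, 24077433 to 24085861), was at 11.6 and 8.62 CPM under 5-FU and 151 and 131 CPM under AFZC (3.80 ± 0.208 log2 units, adjusted p = 3.2e-06). GDF15, a secreted stress cytokine (chromosome 19, 18374731 to 18389176), was at 231 and 211 CPM under 5-FU and 1748 and 1146 CPM under AFZC (2.71 ± 0.216 log2 units, adjusted p = 2.76e-05). Its AFZC libraries differed from each other by more than the 5-FU libraries did, and remained far above them. INPP5D, a phosphoinositide phosphatase best known from blood cells, was at 3.69 and 5.98 CPM under 5-FU and 49.1 and 45.6 CPM under AFZC (3.29 ± 0.214 log2 units, adjusted p = 7.94e-06), and KLHDC7A, a kelch domain protein, at 0.865 and 0.674 CPM under 5-FU and 11.6 and 12.5 CPM under AFZC (3.97 ± 0.513 log2 units, adjusted p = 0.000749). RPS27L, a ribosomal protein paralog, rose from 45.7 ± 6.02 to 143 ± 9.49 CPM (SD, n = 2; 1.65 ± 0.174 log2 units, adjusted p = 0.000178), opposite to the ribosomal proteins described below.

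Growth arrest genes of the GADD45, BTG and sestrin families had 6 of 12 members higher and 0 lower, with a median of 0.78, 3 of them in all 5 fits. Those 3, BTG2, SESN1 and SESN2, are also among the p53 targets counted above. The share of the 12 members higher was 50%, beside 5.87% of all genes. BTG2, an antiproliferative cofactor of mRNA decay, was at 43.8 and 43.5 CPM under 5-FU and 237 and 159 CPM under AFZC (2.18 ± 0.205 log2 units, adjusted p = 8.53e-05). SESN1 and SESN2, which restrain growth signalling through mTORC1, had log2 fold changes of 1.67 ± 0.216 and 1.38 ± 0.154 (adjusted p = 0.000749 and 0.000263). E2F7, a repressor of cell cycle genes, rose from 28.8 ± 6.22 to 98.1 ± 15.6 CPM (SD, n = 2; 1.77 ± 0.207 log2 units, adjusted p = 0.000396). SFN (stratifin), a scaffold protein that holds cells before mitosis (chromosome 1, 26863138 to 26864457), was at 135 and 118 CPM under 5-FU and 1355 and 523 CPM under AFZC. The AFZC libraries of SFN were far apart and both above the 5-FU pair (2.89 ± 0.366 log2 units, adjusted p = 0.00173), and the value was 2.05 without replicate 1 of AFZC. CDKN2A, the p16 and ARF locus, was lower at 57.6 and 44.6 CPM under 5-FU and 25.1 and 34.1 CPM under AFZC (-0.79 ± 0.207 log2 units, adjusted p = 0.0311), a call lost in 3 of the 4 fits with a library left out, with an adjusted p of 0.29 without replicate 1 of 5-FU.

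Exceptions within the target list were few. KITLG, the ligand of the KIT receptor, was the target that fell, at 2005 and 2071 CPM under 5-FU and 637 and 1143 CPM under AFZC (-1.20 ± 0.278 log2 units, adjusted p = 0.0196). Its call was lost without 1 library in 3 of 4 fits, with an adjusted p of 0.132 without replicate 1 of 5-FU. CCNG1, cyclin G1, stood at 185 and 160.1 CPM under 5-FU and 164 and 225 CPM under AFZC, with overlapping groups (adjusted p = 0.604). TNFRSF10D, a decoy receptor, stood at 95.6 and 106 CPM under 5-FU and 137 and 107 CPM under AFZC, where the gap between the AFZC libraries exceeded the gap between the groups (adjusted p = 0.483).

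**Figure D2:**
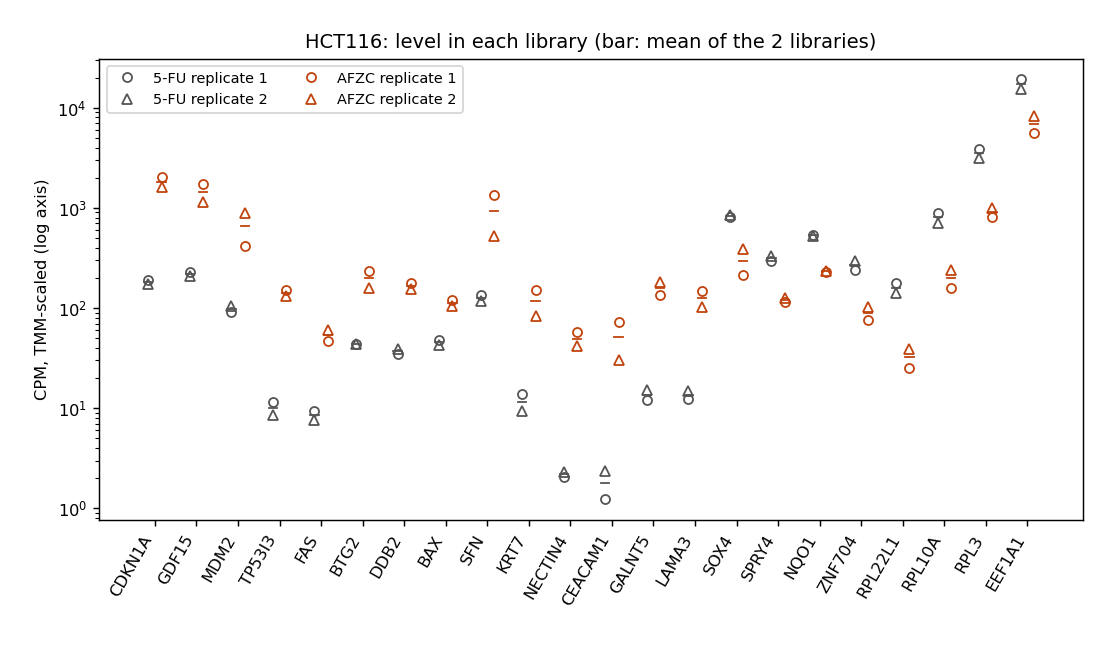
TMM-scaled CPM on a log axis (y) for 22 genes (x) in each of the 4 HCT116 libraries, 5-FU in grey and AFZC in orange, with circles for replicate 1, triangles for replicate 2 and bars for the mean of 2. The groups do not overlap for any gene drawn, and the 2 AFZC libraries stand farther apart than the 5-FU pair for SFN, MDM2, SOX4 and CEACAM1.

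Some genes that start apoptosis, at the receptors and at the mitochondrion, were higher, though most members of their lists did not pass the test. In the list of death receptors and caspases 6 of 29 were higher (20.7%, beside 5.87% of all genes) and 0 lower (median 0.26), 3 of them in all 5 fits. In the BCL2 family 6 of 19 were higher (31.6%) and 0 lower (median 0.18), 1 of them in all 5 fits, and 2 or 1 were higher without replicate 1 or 2 of 5-FU. FAS, the receptor of FAS ligand (chromosome 10, 88990582 to 89015785), was at 9.45 and 7.58 CPM under 5-FU and 47.3 and 60.3 CPM under AFZC (2.66 ± 0.227 log2 units, adjusted p = 4.17e-05). TNFRSF10A and TNFRSF10B, the receptors of TRAIL, were at 27.3 and 29.2 CPM under 5-FU and 91.3 and 71.9 CPM under AFZC, and at 176 and 186 CPM under 5-FU and 431 and 402 CPM under AFZC. Neither receptor had overlapping groups, and both calls held in all 5 fits (1.53 ± 0.196 and 1.20 ± 0.173 on the log2 scale). The decoy receptor TNFRSF10C was at 2.59 and 2.78 CPM under 5-FU and 16 and 17.9 CPM under AFZC (2.66 ± 0.45 log2 units, adjusted p = 0.00375).

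BAX, which opens the outer mitochondrial membrane (chromosome 19, 48954815 to 48961798), was at 48 and 42.6 CPM under 5-FU and 120.2 and 106 CPM under AFZC (1.32 ± 0.181 log2 units, adjusted p = 0.000978). Its activators PMAIP1 (NOXA) and BBC3 (PUMA) were higher at 63 and 54.3 CPM under 5-FU and 200.4 and 123 CPM under AFZC and at 54.2 and 43 CPM under 5-FU and 89.4 and 75.6 CPM under AFZC (log2 fold changes 1.47 ± 0.318 and 0.76 ± 0.196, adjusted p = 0.0195 and 0.0273). Their groups did not overlap, but both calls were lost in 3 of the 4 fits with a library left out, with adjusted p up to 0.129 and 0.228 without replicate 2 of 5-FU. That of TNFRSF10C was lost in 2, with 0.0986 without replicate 1 of 5-FU. Of the apoptosis genes named here FAS, TNFRSF10A, TNFRSF10B, TNFRSF10C, BAX and BBC3 were also counted among the p53 targets.

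DNA repair genes rose singly. In the list of excision and mismatch repair genes 3 of 35 were higher and 2 lower (median -0.04), and 1 of 27 recombination and Fanconi genes was higher (median 0.18), shares near the background. The rises in the excision and mismatch list were DDB2, XPC and TDG, with log2 fold changes of 2.15, 0.86 and 0.73. The calls of XPC and TDG did not hold in all 5 fits. POLH and PCNA, given below, are not in that list. DDB2, the ultraviolet damage sensor of nucleotide excision repair (chromosome 11, 47214465 to 47239240), was at 35.1 and 39.3 CPM under 5-FU and 176 and 154 CPM under AFZC (2.15 ± 0.173 log2 units, adjusted p = 2.88e-05). POLH, the polymerase that copies past damaged bases, was at 21.5 and 22.5 CPM under 5-FU and 98.1 and 77.3 CPM under AFZC (1.99 ± 0.177 log2 units, adjusted p = 5.48e-05). PCNA, the replication clamp that recruits it, was at 178 and 148 CPM under 5-FU and 426 and 344 CPM under AFZC (1.24 ± 0.166 log2 units, adjusted p = 0.000884). DDB2, POLH and PCNA had AFZC libraries well above the 5-FU pair and were higher in all 5 fits. Of 41 replication genes 3 were higher and 2 lower (median 0.01), and of 44 mitotic genes 4 were higher and 0 lower (median 0.38). The mitotic count was 0 without either 5-FU library, 10 without replicate 1 of AFZC and 1 without replicate 2, which is the AFZC library with the higher mitotic levels.

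Of 43 genes of fluoropyrimidine and folate metabolism 6 were higher (14%, beside 5.87% of all genes) and 3 lower (median 0.11). RRM2B, the ribonucleotide reductase subunit that p53 induces, was at 124 and 123 CPM under 5-FU and 309.8 and 380.2 CPM under AFZC (1.48 ± 0.156 log2 units, adjusted p = 0.000178), and CTPS1, which makes CTP from UTP, at 35.7 and 42.5 CPM under 5-FU and 95.6 and 102 CPM under AFZC (1.34 ± 0.187 log2 units, adjusted p = 0.00113). Both were higher in all 5 fits with no overlap between groups. TYMS, the enzyme that 5-FU metabolites block, was at 17.3 and 16.4 CPM under 5-FU and 20.1 and 30.6 CPM under AFZC, where the AFZC libraries differed more from each other than the lower one did from the 5-FU pair (adjusted p = 0.169). ABCG2, a drug efflux pump, was higher at 2.85 and 2.78 CPM under 5-FU and 9.17 and 7.18 CPM under AFZC (1.54 ± 0.324 log2 units, adjusted p = 0.0111), a call lost in 3 of 4 fits with a library left out (adjusted p = 0.125 without replicate 1 of 5-FU).

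Among 23 noncoding RNAs tied to DNA damage or growth 5 were higher and 1 lower, 2 of them in all 5 fits. PINCR and PURPL, noncoding RNAs known to be induced by p53, were at 0.115 and 0.168 CPM under 5-FU and 3.71 and 4.27 CPM under AFZC, and at 2.19 and 1.99 CPM under 5-FU and 9.14 and 12.9 CPM under AFZC. PINCR was 28.4-fold (15.2 to 59.9) higher by its pooled counts, with the 95% exact binomial interval in brackets, and PURPL rose by 2.39 ± 0.289 on the log2 scale. NEAT1, the scaffold of paraspeckles, went the other way at 309 and 349 CPM under 5-FU and 161 and 196 CPM under AFZC (-0.88 ± 0.205 log2 units, adjusted p = 0.0176), a call lost in 3 of 4 fits with a library left out (adjusted p = 0.127 without replicate 2 of 5-FU). Such intervals cover counting error only, and they are too narrow if both mates of a fragment were counted. Of the 23 noncoding RNAs 21.7% were higher, beside 5.87% of all genes.

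Genes of epithelial surfaces, many of them typical of stratified epithelium, formed another group of rises. Of 30 keratin genes tested 8 were higher (26.7%, beside 5.87% of all genes) and 0 lower (median 1.16), 3 of them in all 5 fits. Without replicate 1 of AFZC 5 keratins were higher and the median was 0.35, without replicate 2 these were 12 and 1.68, and 5 or 4 were higher without replicate 1 or 2 of 5-FU. Of 40 genes of the cornified envelope, the protein shell of skin cells, 17 were higher and 1 lower (median 1.06), 5 of them in all 5 fits. The cornified count was 5 without either 5-FU library, 9 without replicate 1 of AFZC (median 0.50) and 16 without replicate 2. Both lists were higher in AFZC replicate 1 than in replicate 2, by medians of 0.83 and 0.57 on the log2 scale. The filter on low counts left out 25 of 55 keratin genes and 37 of 77 cornified envelope genes. LCE1C, with 0 counts under 5-FU and a SW620 change of 0, passed the filter through its AFZC libraries. Members that enter in this way tilt the share higher and the median of the tested genes upward.

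KRT7, a keratin of simple epithelium (chromosome 12, 52232520 to 52252186), was at 13.7 and 9.29 CPM under 5-FU and 152 and 82.6 CPM under AFZC (3.35 ± 0.442 log2 units, adjusted p = 0.00401). KRT19, of simple epithelium too, was at 1116 and 898 CPM under 5-FU and 2510.2 and 1495 CPM under AFZC (0.99 ± 0.235 log2 units, adjusted p = 0.0192), and its call was lost in 3 of 4 fits with a library left out (adjusted p = 0.183 without replicate 1 of AFZC). Basal and stress keratins were near 0 under 5-FU. KRT17 had 3, 2, 631 and 222 counts in the 4 libraries, 165-fold (70.4 to 509) higher when pooled. KRT5 and KRT16, of basal and of activated skin cells, were 41.9-fold (14 to 206) and 27.4-fold (12.3 to 75.7) higher. The calls of KRT5 and KRT16 did not hold in all 5 fits, with log2 fold changes down to 4.27 and 3.68 when a library was left out.

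Among cornified envelope genes HRNR (hornerin) had 0, 2, 219 and 170 counts, 188-fold (51.7 to 1558) higher, and FLG (filaggrin) 0, 4, 74 and 75 counts, 36-fold (13.8 to 134) higher. LCE1C had 0, 0, 199 and 80 counts, at least 89.9-fold higher against 3 counts over the group. With DESeq2 the call of LCE1C was lost (adjusted p = 0.181). GRHL3, a transcription factor of the epidermal barrier (chromosome 1, 24319322 to 24364482), was at 0.375 and 0.702 CPM under 5-FU and 21.8 and 12.5 CPM under AFZC (4.98 ± 0.531 log2 units, adjusted p = 0.000203). TRIM29, a ubiquitin ligase of stratified epithelium (chromosome 11, 120111275 to 120185529), was at 1.33 and 1.49 CPM under 5-FU and 28.5 and 17.1 CPM under AFZC (4.02 ± 0.269 log2 units, adjusted p = 7.94e-06). KRT8 and KRT18, the keratin pair of simple epithelium, stood at 2069 and 1679.6 CPM under 5-FU and 3846 and 2312 CPM under AFZC and at 645 and 504 CPM under 5-FU and 1059.7 and 609 CPM under AFZC, and neither passed the test (adjusted p = 0.0994 and 0.186). The LCE1 genes and the keratins have close copies, so their counts are uncertain where reads could be split.

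Some genes of the cell surface and matrix rose as well. NECTIN4, an adhesion protein of epithelial junctions (chromosome 1, 161070995 to 161089599), was at 2.08 and 2.3 CPM under 5-FU and 57.5 and 41.3 CPM under AFZC (4.49 ± 0.383 log2 units, adjusted p = 5.14e-05). CEACAM1, an adhesion and signalling glycoprotein (chromosome 19, 42507304 to 42561234), was at 1.24 and 2.36 CPM under 5-FU and 73 and 30.1 CPM under AFZC (4.84 ± 0.53 log2 units, adjusted p = 0.00185). For both, each AFZC library lay more than 10-fold above each 5-FU library. Of 46 junction genes 10 were higher (21.7%, beside 5.87% of all genes) and 1 lower (median 0.39), with 1 rise, NECTIN4, in all 5 fits. Their number higher was 1 and 2 without replicates 1 and 2 of 5-FU, 4 without replicate 1 of AFZC, where the median was 0.13, and 14 without replicate 2. Of 49 genes of matrix, integrins and mesenchymal change 12 were higher (24.5%) and 2 lower (median 0.44), with 3 rises in all 5 fits. Here 3 and 5 were higher without replicates 1 and 2 of 5-FU and 5 and 18 without those of AFZC, and the median was 0.0021 without replicate 1 of AFZC. LAMA3, a laminin chain of the epithelial basement membrane (chromosome 18, 23689443 to 23956222), was at 12.3 and 14.9 CPM under 5-FU and 149 and 103 CPM under AFZC (3.21 ± 0.236 log2 units, adjusted p = 1.55e-05), and COL17A1, the hemidesmosomal collagen, at 3.4 and 4.74 CPM under 5-FU and 55.7 and 34.3 CPM under AFZC (3.46 ± 0.334 log2 units, adjusted p = 0.000111). The falls were SPARC and VIM, a matrix glycoprotein and the mesenchymal filament vimentin, both at low levels. SPARC was at 3.29 and 3.65 CPM under 5-FU and 0.557 and 0.388 CPM under AFZC (-2.86 ± 0.485 log2 units, adjusted p = 0.0036), and VIM at 0.663 and 1.4 CPM under 5-FU and 0.265 and 0.166 CPM under AFZC (-2.24 ± 0.433 log2 units, adjusted p = 0.00743), with the call of VIM lost without replicate 2 of 5-FU (adjusted p = 0.0853).

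Intestinal differentiation genes were split. Of the members tested, 21.7% of enterocyte genes and 10% of mucin and goblet genes were higher, beside 5.87% of all genes. The filter on low counts left out 12 of 35 enterocyte genes and 8 of 28 mucin and goblet genes. Any member that passed it through its AFZC libraries would tilt these shares higher, as described for the keratins. Under 5-FU VIL1 had 4 and 0 counts and MYO1A 3 and 6. Of 23 enterocyte genes 5 were higher and 0 lower (median 0.00), 4 of them in all 5 fits, and of 20 mucin and goblet genes 2 were higher and 1 lower (median -0.03). MUC2, the gel-forming mucin, had 2, 2, 252 and 74 counts, 78.8-fold (30.5 to 291) higher, and VIL1 (villin) and MYO1A, both of the brush border, were 24.6-fold (9.34 to 92.2) and 27.2-fold (14.1 to 60.1) higher. KRT20, an enterocyte keratin, stood at 2.88 and 1.71 CPM under 5-FU and 2.04 and 1.39 CPM under AFZC (adjusted p = 0.595), and CDX2 did not pass the test either (adjusted p = 1).

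Other large rises that held in all 5 fits came from genes of unrelated roles. GALNT5, an enzyme that starts mucin-type glycans (chromosome 2, 157257598 to 157314211), was at 12.2 and 15.2 CPM under 5-FU and 135 and 181 CPM under AFZC (3.53 ± 0.226 log2 units, adjusted p = 7.94e-06). PTAFR, the receptor of platelet-activating factor, was at 4.9 and 6.04 CPM under 5-FU and 109.7 and 50.6 CPM under AFZC (3.87 ± 0.333 log2 units, adjusted p = 9.89e-05), SORCS2, a sorting receptor, at 2.77 and 4.16 CPM under 5-FU and 50.9 and 34 CPM under AFZC (3.61 ± 0.288 log2 units, adjusted p = 2.88e-05), and CYP4F3, a leukotriene hydroxylase, at 3.08 and 3.62 CPM under 5-FU and 52.6 and 28.4 CPM under AFZC (3.59 ± 0.346 log2 units, adjusted p = 9.92e-05). None of these groups overlapped. BTBD19 lies just downstream of PLK3, a p53-induced kinase, on the same strand. It was at 10.2 and 9.57 CPM under 5-FU and 169.8 and 56.2 CPM under AFZC and PLK3 at 34.3 and 34.1 CPM under 5-FU and 362 and 139 CPM under AFZC, and in both genes AFZC replicate 1 was the higher by over 2-fold. With the 4 HCT116 libraries fitted alone both calls were lost (adjusted p = 0.125 and 0.0923), and that of PLK3 without replicate 1 of 5-FU (0.0552).

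The immediate early list had 5 of 41 members higher and 4 lower (median 0.33), with 2 rises and 1 fall in all 5 fits. FOSL1, an AP-1 subunit, was at 38.3 and 39.3 CPM under 5-FU and 120.0 and 97 CPM under AFZC (1.48 ± 0.176 log2 units, adjusted p = 0.000433), and SPRY4, an inhibitor of ERK signalling that ERK itself induces, at 297 and 331 CPM under 5-FU and 115 and 126 CPM under AFZC (-1.39 ± 0.171 log2 units, adjusted p = 0.000526). HBEGF, a ligand of the EGF receptor, was at 6.08 and 6.63 CPM under 5-FU and 37.1 and 18.1 CPM under AFZC (2.12 ± 0.306 log2 units, adjusted p = 0.00252), and leaving out 5-FU replicate 1 put its adjusted p at 0.0575. Leaving out replicate 1 or 2 of 5-FU gave 2 or 3 members higher, leaving out AFZC replicate 1 gave 4 and leaving out AFZC replicate 2 gave 19. The list median turned to -0.11 without AFZC replicate 1 and was 0.70 without replicate 2. DESeq2 called 10. CYR61 and CTGF, secreted matrix proteins, show the gap: they stood at 17.4 and 13.1 CPM under 5-FU and 308 and 35 CPM under AFZC and at 6.86 and 6.06 CPM under 5-FU and 67.2 and 8.52 CPM under AFZC, with AFZC replicate 1 far above replicate 2 in both, and neither passed the test (adjusted p = 0.115 and 0.1). With DESeq2 both passed (adjusted p = 0.0113 and 0.0418).

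Messenger RNAs of the cytosolic ribosome were lower under AFZC. Of 79 ribosomal protein genes 61 were lower and 0 higher, beside 3.74% of all genes lower, with a median log2 fold change of -0.81. Together they took 8.42%, 6.78% and 3.79% and 4.57% of counts in replicates 1 and 2 of 5-FU and of AFZC. Both AFZC libraries thus lay below both 5-FU libraries, and the groups did not overlap for 76 genes that were lower, beside 27.4% of all genes. In all 5 fits 3 stayed lower. The number lower was 3 without replicate 1 of 5-FU, 43 without replicate 2, 10 without replicate 1 of AFZC and 56 without replicate 2, and the list median ran from -0.98 to -0.59.

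The 3 ribosomal proteins lower in all 5 fits fell by more than the list median. RPL3, at the peptidyl transferase centre (chromosome 22, 39312882 to 39320389), was at 3830.0 and 3161 CPM under 5-FU and 817 and 993 CPM under AFZC (-1.95 ± 0.288 log2 units, adjusted p = 0.0018). RPL10A (chromosome 6, 35468408 to 35470785) was at 894 and 711 CPM under 5-FU and 158 and 239 CPM under AFZC (-2.02 ± 0.265 log2 units, adjusted p = 0.000887), and RPS9, of the small subunit, at 1039.9 and 859 CPM under 5-FU and 345 and 445 CPM under AFZC (-1.26 ± 0.188 log2 units, adjusted p = 0.00166). The spread within each pair was small beside the gap between groups. RPL12, of the ribosomal stalk base, fell by 1.64 on the log2 scale (adjusted p = 0.00447, and 0.0747 without replicate 1 of 5-FU). RPS10 and FAU lay near 0 with log2 fold changes of -0.07 and -0.09 (adjusted p = 0.959 and 0.824). Ribosomal protein genes have many processed copies, so reads may be split: the pseudogene RPL3P4 followed RPL3 at 153 and 128 CPM under 5-FU and 32 and 44.6 CPM under AFZC (-1.88 ± 0.242 log2 units, adjusted p = 0.000917).

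RPL22L1, the paralog of RPL22 (chromosome 3, 170864875 to 170870483), had the largest fall among genes named by rule at a mean log2 CPM of at least 3, at 178 and 142 CPM under 5-FU and 25.1 and 39.3 CPM under AFZC (-2.32 ± 0.227 log2 units, adjusted p = 0.000122). RPL22 itself fell by 0.93 (adjusted p = 0.00749). Of 26 other genes listed for TOP messages, most of them translation factors, 12 were lower and 1 higher (median -0.60), 0 of them in all 5 fits. Of these 26 genes 46.2% were lower, beside 3.74% of all genes. The falls include 2 genes of other roles, VIM, counted with the matrix genes too, and SLC25A6, a mitochondrial carrier of ADP and ATP. The number lower was 1 and 4 without replicates 1 and 2 of 5-FU and 3 and 12 without those of AFZC. EEF1A1, which brings aminoacyl-tRNA to the ribosome (chromosome 6, 73515750 to 73523797), was at 19150.0 and 15417 CPM under 5-FU and 5613 and 8191 CPM under AFZC (-1.32 ± 0.272 log2 units, adjusted p = 0.00974), and EEF2, the translocase, at 5293 and 5184 CPM under 5-FU and 2816 and 3324 CPM under AFZC (-0.77 ± 0.197 log2 units, adjusted p = 0.0273). Neither pair overlapped, and the calls were lost in 2 and 3 of 4 fits with a library left out (adjusted p up to 0.126 when 5-FU replicate 1 was left out and 0.172 when AFZC replicate 1 was). EIF3C, a subunit of initiation factor 3 that is not in the TOP list, was lower in all 5 fits. It was at 43.7 and 51.1 CPM under 5-FU and 14.9 and 20 CPM under AFZC (-1.44 ± 0.23 log2 units, adjusted p = 0.00252). Its near-identical copy EIF3CL stood at 17.6 and 7.97 CPM under 5-FU and 7.39 and 24.5 CPM under AFZC (adjusted p = 0.827), so the split of reads between them is uncertain.

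The lists of mitochondrial ribosomes, the respiratory chain and ribosome assembly had medians near 0. Their shares higher differed, at 2.56%, 1.23% and 12% in that order, beside 5.87% of all genes. Of 78 mitochondrial ribosomal protein genes 2 were higher and 0 lower (median 0.07), and of 81 nuclear respiratory chain genes 1 was higher and 3 lower (median 0.05). Of 50 ribosome biogenesis genes 6 were higher and 1 lower (median 0.10), 0 of them in all 5 fits, and NCL stood at 853 and 878 CPM under 5-FU and 766 and 1036 CPM under AFZC with overlapping groups (adjusted p = 0.919). Hosts of small nucleolar RNAs, many of which also carry TOP starts, had 3 of 26 lower (11.5%, beside 3.74% of all genes) and 0 higher (median -0.39). SNHG6 was at 123 and 99.6 CPM under 5-FU and 62.9 and 68.5 CPM under AFZC (-0.76 ± 0.152 log2 units, adjusted p = 0.00862), a call lost in 2 of 4 fits with a library left out (adjusted p = 0.127 without replicate 1 of 5-FU). The difference between these lists and the ribosomal proteins was not tested.

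**Figure D3:**
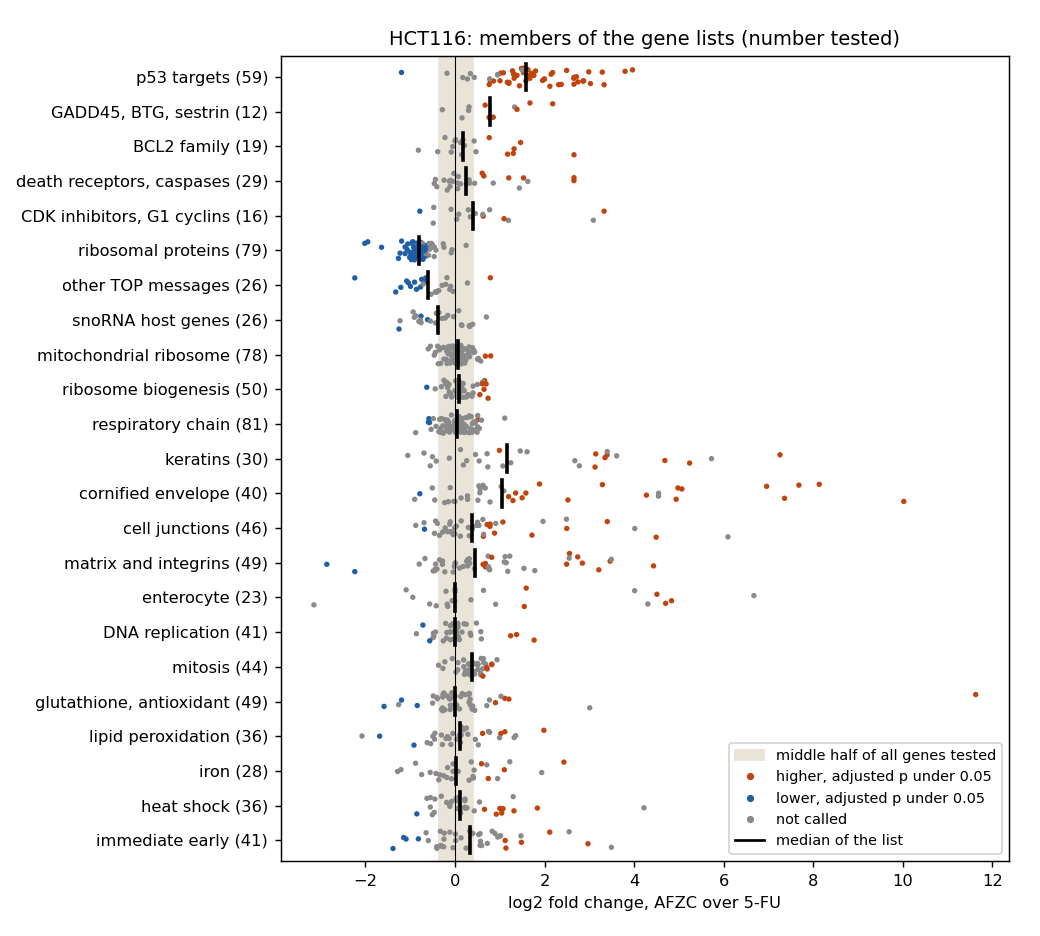
Log2 fold change of AFZC over 5-FU (x axis) for the tested members of 23 gene lists (rows, number tested in brackets), with called members in orange or blue, the list median as a black bar and the middle of all genes tested as a shaded band. The p53 targets (median 1.59) and the ribosomal proteins (median -0.81) stand outside the band, as do the medians of the keratin (1.16) and cornified envelope (1.06) genes.

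Falls outside translation that held in all 5 fits included regulators of growth and cell fate. SOX4, a transcription factor of progenitor cells (chromosome 6, 21592768 to 21598619), was at 820.3 and 841 CPM under 5-FU and 211 and 384 CPM under AFZC (-1.48 ± 0.241 log2 units, adjusted p = 0.00295), ZNF704, a zinc finger protein, at 239 and 298 CPM under 5-FU and 75.6 and 102 CPM under AFZC (-1.60 ± 0.193 log2 units, adjusted p = 0.000463), and NR2F1, an orphan nuclear receptor, at 90.7 and 82.9 CPM under 5-FU and 28.5 and 38.1 CPM under AFZC (-1.38 ± 0.202 log2 units, adjusted p = 0.00154). CLYBL, a mitochondrial lyase, was at 19.2 and 19.8 CPM under 5-FU and 6.41 and 7.41 CPM under AFZC (-1.50 ± 0.213 log2 units, adjusted p = 0.00129). In each the AFZC libraries lay below the 5-FU pair, with the widest spread in SOX4.

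The series title names peroxidative death, so genes of lipid peroxidation, iron and antioxidant defence are of interest. In these lists 4 of 36 lipid peroxidation genes were higher (11.1%, beside 5.87% of all genes) and 2 lower (median 0.11), 4 of 28 iron genes were higher (14.3%) and 0 lower (median 0.01), and 4 of 49 glutathione and antioxidant genes were higher (8.16%) and 3 lower (median -0.01). The number of lipid peroxidation genes higher and of iron genes higher was 1 without either 5-FU library or AFZC replicate 1. The summed level of the lipid peroxidation list was 6438 and 6212 CPM under 5-FU and 3522 and 3478 CPM under AFZC. Most of this sum came from the 2 members that were lower, SAT1, an acetyltransferase of polyamines, at 2814 and 2457 CPM under 5-FU and 1141 and 499 CPM under AFZC (-1.68 ± 0.43 log2 units, adjusted p = 0.0402; 0.183 without replicate 1 of 5-FU), and SCD, given with the sterol genes below. GPX4, the enzyme that reduces lipid hydroperoxides, was at 224 and 182 CPM under 5-FU and 191 and 156 CPM under AFZC, with overlapping groups (adjusted p = 0.446). ACSL4, which loads membranes with polyunsaturated fatty acids, was at 113 and 119 CPM under 5-FU and 98.6 and 114 CPM under AFZC, also overlapping (adjusted p = 0.726). SLC7A11, the cystine importer, was at 32.4 and 38.9 CPM under 5-FU and 10.8 and 19 CPM under AFZC, where both AFZC libraries were lower (adjusted p = 0.128). With the 4 HCT116 libraries fitted alone its adjusted p was 0.00396.

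PROM2, a membrane protein linked to ferritin export (chromosome 2, 95274453 to 95291308), was at 10.8 and 13.4 CPM under 5-FU and 61.4 and 69 CPM under AFZC (2.43 ± 0.239 log2 units, adjusted p = 0.000118), and NQO1, the quinone reductase induced by NRF2 (chromosome 16, 69706996 to 69726951), at 536 and 529.8 CPM under 5-FU and 229.7 and 236 CPM under AFZC (-1.20 ± 0.173 log2 units, adjusted p = 0.00139). Both held in all 5 fits and their pairs were tight, one rising and the other falling. HMOX1, heme oxygenase 1, was at 15.6 and 14 CPM under 5-FU and 36.1 and 27.5 CPM under AFZC (1.10 ± 0.244 log2 units, adjusted p = 0.0142), a call lost in 3 of 4 fits with a library left out (adjusted p = 0.134 without replicate 2 of 5-FU). GGT6, a gamma-glutamyltransferase relative, had 0, 0, 628 and 224 counts, at least 274-fold higher against 3 counts over the group. Aldo-keto reductases moved in opposite directions, with 74-fold (40 to 155) for AKR1B10 and 0.212-fold (0.138 to 0.316) for AKR1C1 as pooled ratios of AFZC over 5-FU. The call of AKR1B10 was lost with DESeq2 (adjusted p = 0.184).

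Of 28 zinc and metallothionein genes 2 were higher and 2 lower (median 0.00). SLC30A1, the zinc exporter of the plasma membrane (chromosome 1, 211571568 to 211578742), was at 38.2 and 51.1 CPM under 5-FU and 114 and 109 CPM under AFZC (1.32 ± 0.196 log2 units, adjusted p = 0.00166), and leaving out 5-FU replicate 1 put its adjusted p at 0.0594. SLC39A8, an importer of zinc and manganese, was at 64.5 and 60.9 CPM under 5-FU and 34.5 and 36.6 CPM under AFZC (-0.82 ± 0.165 log2 units, adjusted p = 0.00876), a call lost in 3 of 4 fits with a library left out (adjusted p = 0.117 without replicate 1 of 5-FU). The metallothionein MT2A stood at 319 and 366 CPM under 5-FU and 678 and 442 CPM under AFZC (adjusted p = 0.422), with AFZC replicate 1 above replicate 2. Fitted with the HCT116 libraries alone, MT2A passed at an adjusted p of 0.0311. The sources used here do not give the metal of the framework.

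Of 36 heat shock genes 7 were higher and 1 lower (median 0.11), with 1 rise in all 5 fits, which was the count higher without either 5-FU library or AFZC replicate 1. HSPA4L, a relative of the HSP110 chaperones (chromosome 4, 127781821 to 127840733), was at 38.1 and 40.2 CPM under 5-FU and 142 and 139 CPM under AFZC (1.84 ± 0.159 log2 units, adjusted p = 4.42e-05), with little spread in either pair. HSP90B1, the chaperone of the endoplasmic reticulum, was at 1101 and 949.9 CPM under 5-FU and 551 and 583 CPM under AFZC (-0.85 ± 0.193 log2 units, adjusted p = 0.0157), a call lost in 3 of 4 fits with a library left out (adjusted p = 0.157 without replicate 1 of 5-FU). The share of heat shock genes higher was 19.4%, beside 5.87% of all genes. Of 48 genes of the integrated stress response 5 were higher (10.4%) and 2 lower (median 0.20). CBS, cystathionine beta-synthase, had 0, 0, 41 and 28 counts, at least 22.2-fold higher. Its duplicate CBSL had 0, 0, 22 and 10 (adjusted p = 0.2, but 0.0167 with DESeq2 and 0.0138 with the HCT116 libraries alone), and reads of the 2 loci cannot be told apart.

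Sterol and fatty acid synthesis had 0 of 37 higher and 4 lower (median -0.06), led by SCD, the stearoyl-CoA desaturase, at 1894 and 2067 CPM under 5-FU and 785 and 1313 CPM under AFZC (-0.92 ± 0.235 log2 units, adjusted p = 0.0273). That call was lost in 3 of 4 fits with a library left out (adjusted p = 0.191 without replicate 1 of AFZC). For interferon genes 7 of 48 were higher (14.6%, beside 5.87% of all genes) and 2 lower (median 0.25). For NF-kB genes and cytokines 5 of 40 were higher (12.5%) and 0 lower (median 0.57). The NF-kB count was 1 without either 5-FU library or replicate 1 of AFZC and 17 without replicate 2 of AFZC, with a median of 0.11 without replicate 1 of AFZC, and DESeq2 called 12. TRIM22, an antiviral protein that is also a p53 target, was at 0.778 and 1.04 CPM under 5-FU and 6.31 and 8.54 CPM under AFZC (3.02 ± 0.415 log2 units, adjusted p = 0.00134), and EBI3, a shared subunit of cytokine heterodimers, at 0.836 and 0.477 CPM under 5-FU and 13.4 and 5.66 CPM under AFZC (3.86 ± 0.499 log2 units, adjusted p = 0.000749). Both were higher in all 5 fits. Lysosome and autophagy genes had 5 of 58 higher and 2 lower (median 0.11), led among calls kept in all 5 fits by DRAM1, a p53-induced lysosomal protein, at 32.2 and 27.9 CPM under 5-FU and 116 and 92.9 CPM under AFZC (1.80 ± 0.181 log2 units, adjusted p = 0.000139).

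**Figure D4:**
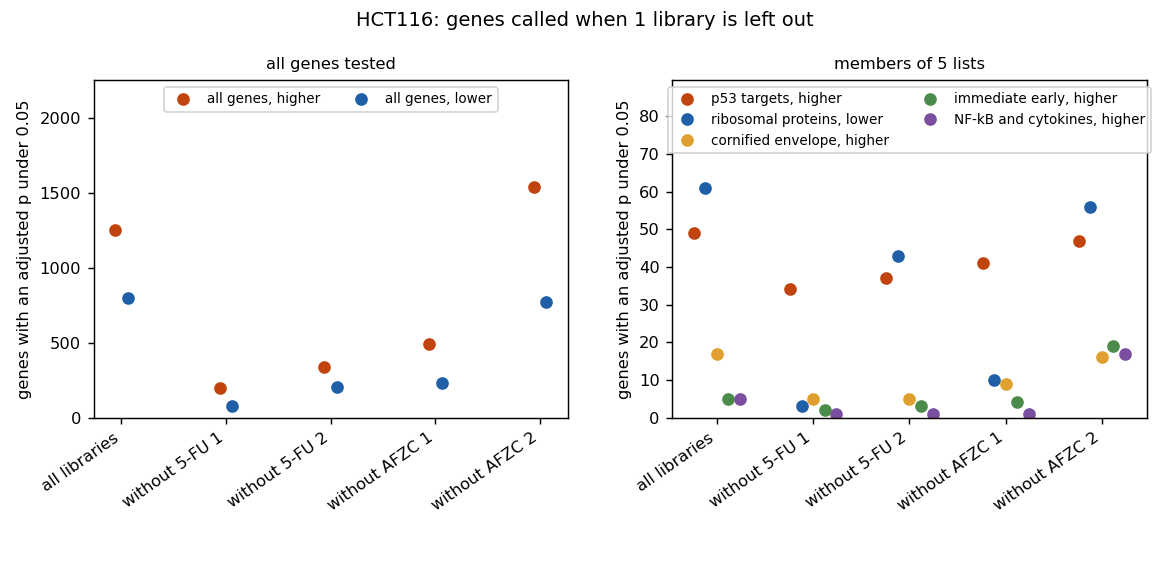
Number of genes with an adjusted p under 0.05 (y axis) with all libraries and with each HCT116 library left out (x axis), over all genes tested (left) and in 5 gene lists (right). The count of p53 targets higher runs from 34 to 49, while the count of ribosomal proteins lower runs from 3 to 61 and that of immediate early genes higher from 2 to 19.

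The same contrast in SW620 showed which changes differed between the lines. There 18.6% of genes tested passed in either direction, against 9.61% in HCT116. Genes higher in both lines numbered 257 (20.5% of those higher in HCT116, 10.4% of those in SW620), and genes lower in both 263 (32.9% and 17.7%). Genes that rose in HCT116 and fell in SW620 numbered 82, and those that fell in HCT116 and rose in SW620 numbered 53. The difference of the 2 effects itself passed for 9.78% of genes, 884 with HCT116 above SW620 (4.14%) and 1207 with HCT116 below (5.65%).

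For p53 targets that difference passed in 40 of 59 with HCT116 above and in 1 with HCT116 below. In SW620 10 of these targets were higher and 8 lower, with a median of 0.04. The difference was 2.62 ± 0.295, adjusted p = 0.000299 for CDKN1A, 3.62 ± 0.291, adjusted p = 6.97e-05 for TP53I3, 2.47 ± 0.406, adjusted p = 0.00453 for MDM2 and 3.98 ± 0.283, adjusted p = 6.97e-05 for INPP5D, in log2 units with SE. Their SW620 changes alone were 0.71, 0.18, 0.28 and -0.69. For ribosomal proteins the difference passed in 0 of 79 (75 were lower in SW620, with a median of -1.05 there). RPL3 changed by -1.95 and -1.89 and RPL10A by -2.02 and -1.67 in HCT116 and SW620. The difference was -0.06 ± 0.394, adjusted p = 0.976 for RPL3 and -0.35 ± 0.361, adjusted p = 0.611 for RPL10A, and a p that misses the threshold does not show that the lines act alike. Replication genes went the other way between the lines, with the difference passing in 38 of 41 with HCT116 below. In SW620 all 41 were higher (median 1.91), where 3 were in HCT116. In bulk RNA fewer cells of a kind and less RNA per cell cannot be told apart.

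**Figure D5:**
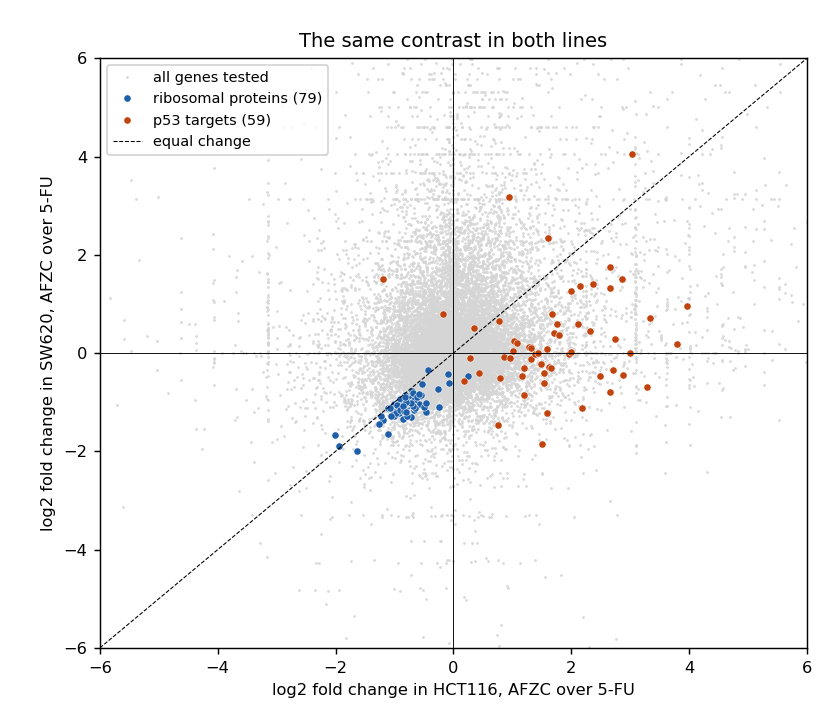
Log2 fold change of AFZC over 5-FU in SW620 (y axis) against that in HCT116 (x axis) for the genes tested, with 59 p53 targets in orange, 79 ribosomal proteins in blue and a dashed line of equal change. The axes stop at 6, so the largest changes of rare transcripts are not drawn. The ribosomal proteins lie near the line of equal change, and the p53 targets spread along the HCT116 axis around a SW620 median of 0.04.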

How the data were processed

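Polyadenylated RNA was sequenced without strand information, per the labels' protocols. The deposited values are the authors' raw counts, 1 row per gene symbol and 1 column for each of 8 libraries. Tools in the submitters' processing notes include HISAT2, STAR and featureCounts, with the build GRCh38. The sources used here do not give the aligner used or the counting of mates and multiply aligned reads. Coordinates are GRCh38, and 57142 of 57169 rows carried a GENCODE 29 symbol (27 were restored by position).

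EdgeR 4.0.16 (R 4.3.3) fitted 4 group means to all 8 libraries by quasi-likelihood (filterByExpr with a minimum count of 10, TMM factors, 4 residual degrees of freedom, common coefficient of variation 19.9%). Tests were two-sided, adjusted by Benjamini-Hochberg over 21378 genes at a threshold of 0.05, and the SE is the log2 fold change over the root of F. Alternatives were DESeq2 1.42.0, other scaling, no filter, HCT116 alone, length trends, a replicate block and leaving out each library. The steps were tested on simulated counts.

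The comparison, the 45 gene lists and the rule for named genes were chosen with earlier results of these data known. Named were the 12 largest rises and falls kept in all 5 fits (at 3 or more mean log2 CPM, without overlap or clone and antisense names), up to 3 called members per list, the 5 largest CPM differences each way, and CDKN1A, MDM2, TYMS, GPX4, SLC7A11, HMOX1, ACSL4, NCL, MT2A and SLC30A1; the text gives a selection. SFN, TRIM29, FLG, GRHL3, NQO1, SPARC, PPM1D, POLH, PLK3, HSP90B1, EIF3CL, CBSL, KITLG, CCNG1, CYR61, CTGF, TNFRSF10B, TNFRSF10D, BBC3, HRNR, NEAT1, RPS9, RPS10, FAU, RPL22, SLC25A6, KRT8, KRT18, KRT20, EPCAM and CDX2 were named after their values were seen. Some list members are not reported here.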

Additional observations from a re-analysis of the deposited data

Results flagged for a closer look

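These genes had AFZC effects that differed between the lines by the test of the difference itself, HCT116 minus SW620 in log2 units (edgeR's quasi-likelihood test, adjusted over all genes). With HCT116 above SW620 they were CEACAM1 (4.80, adjusted p = 0.00489), INPP5D (3.98, 6.97e-05), SORCS2 (3.79, 0.000141), TP53I3 (3.62, 6.97e-05), CYP4F3 (3.43, 0.00153), BTBD19 (3.18, 0.0222), GALNT5 (3.17, 0.000103), KRT7 (3.16, 0.015), CDKN1A (2.62, 0.000299), MDM2 (2.47, 0.00453), PTAFR (2.34, 0.00705) and SLC30A1 (1.84, 0.00164). PTAFR and CDKN1A rose in SW620 too, by 1.54 and 0.71 there, and INPP5D was lower there (-0.69). With HCT116 below they were ZNF704 (-2.67, 0.000189), TYMS (-2.04, 0.0052), EIF3C (-1.71, 0.00603) and SESTD1 (-1.20, 0.0154). ZNF704 fell in HCT116, by 1.60, and rose by 1.07 in SW620. TYMS stood at 0.58 in HCT116 and rose by 2.63 in SW620. Groups of 2 libraries are too small for a test of single outlying samples, and the cause of these differences was not tested.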

How the results depend on the processing

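Left-out libraries gave 199 to 1538 genes higher and 78 to 772 lower in HCT116, and 723 to 2316 genes with a difference between the lines. The number lower rose from 800 to 1246 with the HCT116 libraries alone and to 1306 without the filter on low counts, and DESeq2 gave 1528 higher and 1148 lower. No gene called with all libraries was called in the opposite direction under any of the 11 alternatives. The difference between the lines has no value with HCT116 alone. It passed for 2091 genes in the main fit, 2752 with DESeq2, 2885 with library sizes only and 3128 without the filter. The TMM factors of SW620 were 0.867 and 0.816 under 5-FU and 1.11 and 1.07 under AFZC. Deviations of same-numbered libraries correlated at 0.0209 in HCT116 and -0.0254 in SW620, so no shared deviation was seen over all genes. These correlations cannot show whether same-numbered libraries were made together, and the labels do not say whether replicates were separate cultures. With the replicate block 1252 genes were higher and 771 lower, and 1135 and 682 of these were among the main calls. Of the named genes that passed, ACACB and ESPL1 lost their calls with library sizes only, and PNO1 and SLC39A4 with RLE factors. Genes with few counts, and folds against a group at 0, are limited by depth: 3 counts were 0.0821 to 0.0889 CPM per library.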

Other observations

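Targets and regulators of WNT signalling had 6 of 28 members higher and 1 lower (median 0.01), with SOX4 the member kept in all 5 fits and 0 higher without either 5-FU library. The share of the WNT list higher was 21.4%, beside 5.87% of all genes. DKK1, a secreted WNT inhibitor, was at 78.1 and 77.2 CPM under 5-FU and 377 and 318 CPM under AFZC. NKD2, an inhibitor inside the cell, was at 25.6 and 21.1 CPM under 5-FU and 85.6 and 42.9 CPM under AFZC. Their groups did not overlap (log2 fold changes 2.16 ± 0.454 and 1.46 ± 0.261, adjusted p = 0.0249 and 0.00622), and both calls were lost in fits that left out a library, with adjusted p up to 0.132 for DKK1 when AFZC replicate 1 was left out (0.176 without the filter on low counts) and 0.0789 for NKD2 when 5-FU replicate 2 was. CCND1, cyclin D1, is a WNT target that drives entry into S phase. It was at 499 and 557 CPM under 5-FU and 1211 and 1046 CPM under AFZC (1.10 ± 0.232 log2 units, adjusted p = 0.0114). Its call did not hold in all 5 fits, and its log2 fold change was 0.99 to 1.20 with 1 library left out. CDKN1A, which inhibits the kinase of cyclin D1, was higher in the same libraries, and bulk RNA does not show whether in the same cells. PLEC, the cytoskeletal linker plectin, was at 1013 and 1342 CPM under 5-FU and 2842 and 1825 CPM under AFZC (0.99 ± 0.234 log2 units, adjusted p = 0.0195; leaving out 5-FU replicate 1 gave 0.22).

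Of the 13 messages of the mitochondrial genome 1, MT-ND1, was higher at 2454 and 2347 CPM under 5-FU and 4072 and 3661 CPM under AFZC (0.69 ± 0.187 log2 units, adjusted p = 0.0362; leaving out 5-FU replicate 2 gave 0.182). The 13 took 8.72%, 8.33% and 10.2% and 9.29% of counts in replicates 1 and 2 of 5-FU and of AFZC. The call of SAT1, a fall given with the lipid peroxidation genes, was also lost without the filter on low counts (adjusted p = 0.264). ITGAM, an integrin of myeloid cells, was at 0 and 0.618 CPM under 5-FU and 8.85 and 7.32 CPM under AFZC while PTPRC, the leukocyte antigen CD45, was at 0.0576 and 0 CPM under 5-FU and 0 and 0.0555 CPM under AFZC, and the call of ITGAM was lost with DESeq2 (adjusted p = 0.107).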
